A study of Mus musculus with 2 samples.

Results

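The colony-stimulating factors and their receptors were followed through 2 nuclear RNA libraries of mouse macrophages. The set was defined by gene symbol and takes in 9 genes of the 55536 in the deposited gene table: the ligand genes Csf1, Csf2 and Csf3, and the receptor genes Csf1r, Csf2ra, Csf2rb, Csf2rb2, Csf3r and Il3ra. Both libraries belong to a single group of bone marrow-derived macrophages, primary cells grown out of marrow, from C57BL/6J mice with no other allele named. The cells were first kept for 12 h in 100 ng/ml Lipid A, the part of bacterial lipopolysaccharide that is sensed through TLR4. A 12 h washout followed, and then a second dose of 100 ng/ml Lipid A for 10 min. The nuclear fraction was taken, ribosomal RNA was depleted, and total RNA was sequenced from 1 µg (replicate 1) or 500 ng (replicate 2). The sample description calls this fraction nucleoplasmic, while another label gives nucleus, and it is called nuclear here.

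The labels call the 2 libraries biological replicates of 1 donor entry with separate biosample entries; they do not say whether the cultures or animals were separate, so the spread between them may be technical. Sex and age were not collected, and the growth factor used to derive the macrophages is not given in the sources used here. No library without Lipid A was analysed here. The design therefore holds no contrast between conditions, and a two-sided exact test of 2 libraries could not fall below p = 0.5. The results are levels, their spread and their make-up, with no test. The depth, as the sum of expected counts over genes, was 24444219 for replicate 1 and 18051097 for replicate 2.

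CSF1 (M-CSF) is the growth and survival factor of macrophages and acts through CSF1R, a receptor tyrosine kinase. CSF2 (GM-CSF) and interleukin 3 each bind an α subunit of their own (encoded by Csf2ra and Il3ra) that pairs with a shared β subunit (Csf2rb), which interleukin 5 also uses, and signals through JAK2 and STAT5. The mouse carries a second β subunit, encoded by Csf2rb2, that serves interleukin 3 only. CSF3 (G-CSF) drives neutrophil production through CSF3R. Macrophages carry these receptors to differing degrees and can themselves make the ligands when they sense bacterial products. Nuclear RNA as a whole holds newly made and unspliced RNA as well as finished messages, so a nuclear level is not a cytoplasmic message level. Which of these the fraction labelled nucleoplasmic kept was not tested.

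Of the 9 genes, 7 were detected, meaning that both libraries had a level of 1 TPM or more (TPM is corrected for transcript length and library size) and an expected count of 10 or more. By the same rule 42.9% of the 22028 protein-coding genes were detected. All 6 receptor genes and Csf1 passed, and the ligand genes Csf2 and Csf3 did not. In mean TPM, which is per length, the order ran from Csf1r through Csf3r and Csf2ra to Csf2rb2 and Csf2rb, then Csf1 and Il3ra, and last Csf3 and Csf2. The values of Csf2rb2 and Csf2rb overlapped across the replicates, as did those of Csf1 and Il3ra and those of Csf3 and Csf2; every other pair of neighbours was separated in both libraries. The place of Csf2ra holds for whole-gene TPM of this quantification only: on transcripts with a consensus coding sequence it lay below Csf2rb2 and Csf2rb, and in a second deposited quantification below Csf2rb. The median level of the 7 detected genes was 35.7 TPM, against 7.99 TPM over all detected protein-coding genes.

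**Figure D1:**
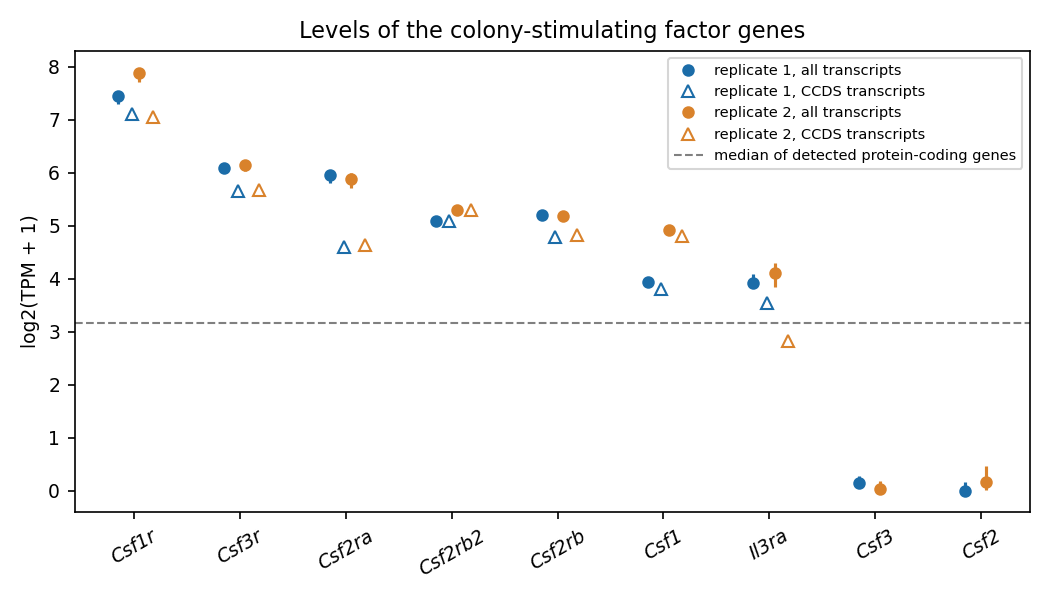
Level of each gene as log2(TPM + 1) in replicate 1 (blue) and replicate 2 (orange); filled circles are all transcripts, vertical bars the deposited interval of the read assignment, open triangles the transcripts with a consensus coding sequence, and the dashed line the median of detected protein-coding genes. Csf1r stood highest at 172.18 and 233.49 TPM, and Csf2 and Csf3 lay near 0.

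The labelled cell type was checked against its markers. All 10 macrophage markers were detected, with a summed level of 3040 TPM in replicate 1 and 2748 TPM in replicate 2; Csf1r is itself on that list. The highest were Lyz2 (lysozyme) at 968.36 and 953.1 TPM, Mpeg1 (perforin-2) at 634.42 and 662.56 TPM and Adgre1 (F4/80) at 441.94 and 347.07 TPM. No marker of T and NK cells (5 genes), B cells (4) or progenitors (3) was detected. The endothelial list was the exception, with 2 of 4 genes detected: Kdr at 13.08 and 5.33 TPM and Pecam1 at 1.34 and 1.04 TPM. Its summed level was 14.6 TPM in replicate 1 and 6.44 TPM in replicate 2, and its part in the levels below was not tested.

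Csf1 (ENSMUSG00000014599.10; mm10 chromosome 3, 107741048 to 107760469, minus strand) was the only ligand gene of the set that was detected. Its level was 14.42 TPM in replicate 1 and 29.43 TPM in replicate 2 (21.9 ± 10.6, SD, n = 2). The deposited intervals of the read assignment, whose level is not given in the sources used here, were 13.4 to 15.3 TPM and 27.4 to 30.3 TPM. They did not meet, so replicate 2 was higher by more than the assignment error. Scaled to library size (CPM), the counts of 1857 and 2671 gave 76.0 and 148 CPM. None of the 8 fibroblast and stromal markers was detected, with summed levels of 0.24 and 0.20 TPM; stromal cells are a main source of CSF1 in the body. Which cells the Csf1 RNA came from was not tested.

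Most Csf1 RNA was assigned to transcripts that differ in exon 6. The long exon 6 encodes the secreted glycoprotein and proteoglycan forms of CSF1, and the short one leads to a form that stays on the cell surface. In Csf1-201 and Csf1-203 exon 6 is 1016 bases long (107748154 to 107749169) and the coding sequence has 552 codons; in Csf1-202 it is 131 bases long (107748154 to 107748284) and the coding sequence has 257 codons. The 2 junctions are shown because they are what tells the forms apart. Lower case marks the last 25 bases of exon 5, which they share, and capitals the first 25 bases of exon 6, from the GENCODE M21 transcripts.
Csf1-201: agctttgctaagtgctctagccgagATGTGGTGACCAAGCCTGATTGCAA
Csf1-202: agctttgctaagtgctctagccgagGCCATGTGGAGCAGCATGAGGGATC

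Of the TPM on the 3 complete coding Csf1 transcripts, the long form held 72.5% in replicate 1 and 67.0% in replicate 2 (69.7% ± 3.93, SD, n = 2). The short form held 27.5% and 33.0%. Both libraries thus placed more Csf1 RNA on the secreted form than on the cell-surface form. The second quantification gave the short form 20.4% and 30.2%. Over the whole gene, Csf1-201 took 57.49% and 55.99% of TPM and Csf1-202 24.64% and 30.29%. The retained-intron transcript Csf1-206, which covers 421 of the 994 bases of intron 6, took 5.06% and 3.53%.

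Csf3 (ENSMUSG00000038067.2; mm10 chromosome 11, 98701263 to 98703629, plus strand) encodes G-CSF and was at the floor of detection. It had an expected count of 5 in replicate 1 (95% exact Poisson interval 1.62 to 11.7) and 1 in replicate 2 (0.0253 to 5.57), or 0.11 and 0.03 TPM. Csf2 (ENSMUSG00000018916.5; mm10 chromosome 11, 54247271 to 54249667, minus strand), which encodes GM-CSF, had a count of 0 in replicate 1 and 2 in replicate 2 (0.242 to 7.22), or 0 and 0.12 TPM. For the count of 0 the upper end of the same interval is 3.69 counts; the simpler limit of 3 counts is 0.130 TPM for Csf2 in replicate 1. Both ligand genes thus rested on 5 counts or fewer in each library, and no ratio is given for them. The second quantification assigned Csf2 counts of 2.06 and 5.65 and Csf3 counts of 5 and 3. These intervals cover counting error only. The antisense gene Gm12223, which overlaps Csf2, had a count of 0 in both libraries.

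Csf1r (ENSMUSG00000024621.16; mm10 chromosome 18, 61100598 to 61132149, plus strand) encodes the CSF1 receptor and was the highest gene of the set. Its level was 172.18 TPM in replicate 1 and 233.49 TPM in replicate 2 (203 ± 43.4, SD, n = 2), with assignment intervals of 156.15 to 176.68 and 209.47 to 238.29 TPM. Its mean lay above 99.0% of the detected protein-coding genes. In counts the order of the replicates was the other way round, with 891 CPM in replicate 1 and 845 in replicate 2. The receptor gene stood above its ligand gene by 3.58 in replicate 1 and 2.99 in replicate 2 on the log2 TPM scale, or 11.9-fold and 7.93-fold. On complete coding transcripts the receptor gene had 136.53 and 131.92 TPM against 12.91 and 26.99 TPM for the ligand gene, a smaller mean log2 difference of 2.85.

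The TPM of Csf1r depended on a short transcript. Csf1r-205 is annotated with 416 bases in 3 exons and an incomplete end, and its effective length, the number of places a fragment can start, was 201.03 and 195.56 bases. It held 1.19% of the gene's count in replicate 1 and 3.46% in replicate 2. On the TPM scale the same reads were 32.55 and 97.44 TPM, or 18.91% and 41.73% of the gene. Csf1r-201 and Csf1r-202, which encode the same 2931 coding bases in 22 and 21 exons, together had 136.53 and 131.92 TPM (134 ± 3.26, SD, n = 2). In this quantification the complete transcripts thus differed less between the replicates than the gene as a whole, and Csf1r was still the highest of the set. The second quantification gave the complete transcripts 50.1 and 71.1 TPM and the gene 94.1 and 147 TPM. Csf1r was the highest there too, but its complete transcripts were higher in replicate 2. Their near-equal levels were thus seen in the first quantification only. Csf1r-205 held 42.0% and 45.1% of the gene's TPM in the second.

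**Figure D2:**
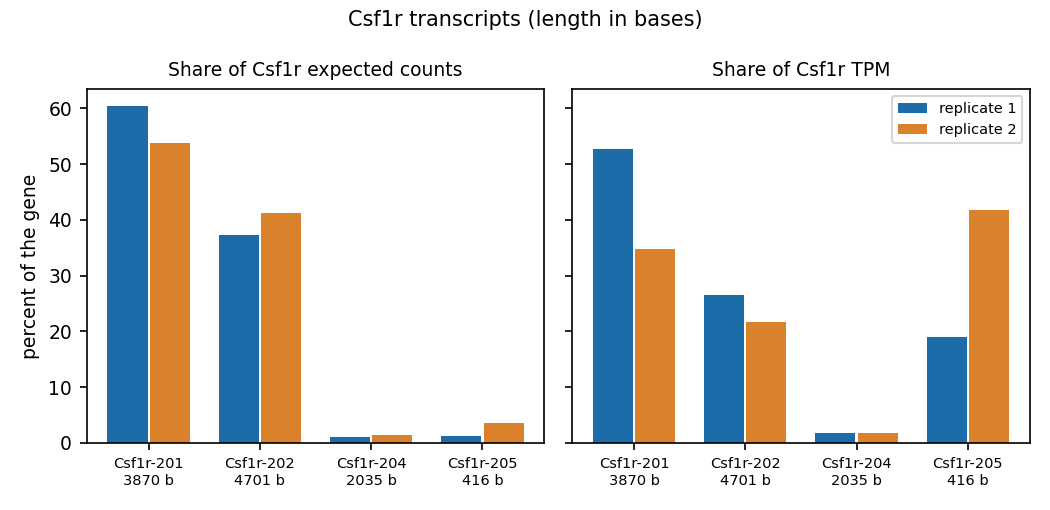
Share of each Csf1r transcript with signal in the gene's expected counts (left) and in its TPM (right), in percent, for replicate 1 (blue) and replicate 2 (orange); the length in bases stands under each name. Csf1r-205 is 1.19% and 3.46% of counts and 18.91% and 41.73% of TPM.

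Csf1r-201 held most of the counts, with 60.5% and 53.9%. By TPM it held 52.76% in replicate 1 and 34.78% in replicate 2, where Csf1r-205 was above it. Csf1r-202 followed with 37.3% and 41.3% of counts. The second quantification gave Csf1r-201 85.2% and 79.5% of counts and Csf1r-202 7.90% and 11.6%. The division between these complete transcripts is therefore uncertain. The retained-intron transcript Csf1r-204, which covers 344 of the 5131 bases of intron 11, had 1.80% and 1.77% of TPM. Hmgxb3 lies on the opposite strand and overlaps Csf1r by 873 bases; it had counts of 1140.71 and 945.78. Whether the counting used strand is not given in the sources used here, so reads in that overlap cannot be assigned with certainty.

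Csf3r (ENSMUSG00000028859.14; mm10 chromosome 4, 126024550 to 126044440, plus strand) encodes the G-CSF receptor, best known from neutrophils, and was the second-highest gene. It had 67.25 TPM in replicate 1 and 70.13 TPM in replicate 2 (68.7 ± 2.04, SD, n = 2), above 95.7% of detected protein-coding genes. It lay below Csf1r with a log2 TPM difference of −1.36 in replicate 1 and −1.74 in replicate 2. None of the 12 neutrophil markers passed the detection limit. Their summed level was 2.25 TPM in replicate 1 and 1.64 in replicate 2, the highest being Mmp8 at 0.90 and 0.93 TPM, and Ly6g, Elane and Camp were listed at 0 counts. The receptor gene was far above the sum of that list in both libraries, and its ligand gene Csf3 was not detected. Which cells the Csf3r RNA came from was not tested.

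The 2 complete Csf3r transcripts carry the same 2511 coding bases behind different first exons. Csf3r-201 held 65.27% and 62.77% of the gene's TPM and Csf3r-202 8.12% and 8.24%. The processed transcript Csf3r-203, of 921 bases and with no annotated reading frame, held 22.30% and 25.28% of TPM but 6.65% and 7.66% of counts. The 2 quantifications differed in how they divided this gene: Csf3r-202 had counts of 707.82 and 522.50 in one and 4145.88 and 2823.97 in the other. The shares of single Csf3r transcripts are therefore uncertain. The complete coding transcripts summed to 49.35 and 49.80 TPM in the first and to 22.5 and 30.4 TPM in the second, where the gene's mean was 35.8 TPM.

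The subunits of the GM-CSF and interleukin 3 receptors came next. Csf2ra (ENSMUSG00000059326.7; mm10 chromosome 19, 61223957 to 61228429, minus strand), the GM-CSF-binding α subunit, had 60.97 TPM in replicate 1 and 58.23 TPM in replicate 2 (59.6 ± 1.94, SD, n = 2). Csf2rb (ENSMUSG00000071713.6; mm10 chromosome 15, 78325752 to 78353847, plus strand), the shared β subunit, had 35.77 and 35.26 TPM (35.5 ± 0.361). Csf2rb2 (ENSMUSG00000071714.7; mm10 chromosome 15, 78282507 to 78305721, minus strand), the β subunit used by interleukin 3 alone, had 33.23 and 38.18 TPM (35.7 ± 3.50). On whole-gene TPM the GM-CSF α subunit was above the shared β subunit in both libraries, with a log2 difference of −0.77 and −0.72 for Csf2rb against Csf2ra. That direction turned in the second quantification (mean 0.052) and on complete coding transcripts (mean 0.19). The difference between the β genes, 0.11 and −0.11, lay within the spread.

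The β genes are near-identical neighbours, lying 20030 bases apart on opposite strands. Aligned, Csf2rb-201 (2688 coding bases) and Csf2rb2-201 (2634) were identical at 95.4% of the coding positions where both have a base, with 122 substitutions, and 70 further columns of the alignment held a gap. The lines below show the 60-base stretch where they differ most, with the 13 differing bases in capitals, because reads from such places are what separates them. The stretch covers coding bases 304 to 363 of Csf2rb-201 and 307 to 366 of Csf2rb2-201, counted from the start codon in GENCODE M21 transcripts.
Csf2rb-201: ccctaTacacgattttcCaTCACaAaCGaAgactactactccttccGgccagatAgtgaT
Csf2rb2-201: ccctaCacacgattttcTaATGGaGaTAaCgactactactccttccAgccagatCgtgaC
Elsewhere they share long runs, within which a read cannot be assigned: the longest identical coding run has 242 bases, of which the first 100 (Csf2rb-201 coding bases 2083 to 2182) read as follows.
Shared run: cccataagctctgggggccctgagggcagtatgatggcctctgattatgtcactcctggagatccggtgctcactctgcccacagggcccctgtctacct

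Of all 31-base words of Csf2rb-201, 28.9% also occur in an annotated transcript of Csf2rb2, and of all 100-base words 7.16% do. The deposited SD of the read assignment was 8.34 counts in replicate 1 and 6.44 in replicate 2 for each gene, beside counts of 5419.43 and 3919.74 for Csf2rb and 5924.57 and 4772.26 for Csf2rb2. The assignment error was thus small beside the counts. The second quantification gave another level ratio: 27.3 and 37.6 TPM for Csf2rb against 12.9 and 21.8 TPM for Csf2rb2. Its counts lay closer, at 7345 and 6694 for Csf2rb and 7035 and 7177 for Csf2rb2. On the transcripts with a consensus coding sequence, Csf2rb had 26.58 and 27.32 TPM and Csf2rb2 32.87 and 38.05 TPM in the first quantification. The second gave these transcripts 9.72 and 14.4 TPM for Csf2rb and 11.4 and 18.9 TPM for Csf2rb2. The order of the β genes thus turned with the measure and is uncertain.

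Il3ra (ENSMUSG00000068758.8; mm10 chromosome 14, 14346275 to 14356011, plus strand), the interleukin 3-binding α subunit, was the lowest detected gene. It had 14.15 TPM in replicate 1 and 16.28 TPM in replicate 2 (15.2 ± 1.51, SD, n = 2), and 34.1 and 25.6 CPM. It lay below Csf2ra with a log2 TPM difference of −2.11 and −1.84. The antisense gene Gm48860, which overlaps it, had 0 counts in both libraries. No marker of mast cells and basophils (6 genes, summed levels 0.13 and 0.52 TPM) or of dendritic cells (6 genes, 1.82 and 1.76 TPM) passed the detection limit. The dendritic-cell gene Ccr9, named after its values were seen, lay just under it at 0.92 and 0.88 TPM. Mast cells and basophils are known to respond to interleukin 3. Which cells the Il3ra RNA came from was not tested.

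The make-up of the receptor genes by transcript type differed from gene to gene. Retained-intron transcripts, which keep an intron that the coding transcripts remove, held 38.4% and 40.7% of the Csf2ra TPM (39.5% ± 1.65, SD, n = 2) and 25.7% and 22.5% of the Csf2rb TPM (24.1% ± 2.26). Il3ra had 12.31% and 20.74% (16.5% ± 5.98), Csf1 a mean of 4.30% and Csf1r 1.80% and 1.77%. Over the 5972 detected protein-coding genes with such an annotation the median was 26.7%, with quartiles of 14.6% and 41.3%. Csf2ra lay above 72.1% of them, Csf2rb above 44.7%, Il3ra above 28.9%, Csf1 above 6.36% and Csf1r above 2.58%. These shares and places are by TPM of the first quantification. They hold only reads assigned to annotated retained-intron transcripts, which for Csf1r means Csf1r-204 alone. RNA from other introns is not measured, so the shares do not give how far a gene's RNA was spliced. By counts of the first quantification the Il3ra share was 4.15% and 10.0%. For Csf2rb the second gave retained-intron transcripts 39.4% and 46.0% of TPM. By counts of the first they held 11.4% and 12.1%, so the Csf2rb share is uncertain. Csf2rb2 and Csf3r have no retained-intron transcript in the annotation, so no share can be given for them.

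**Figure D3:**
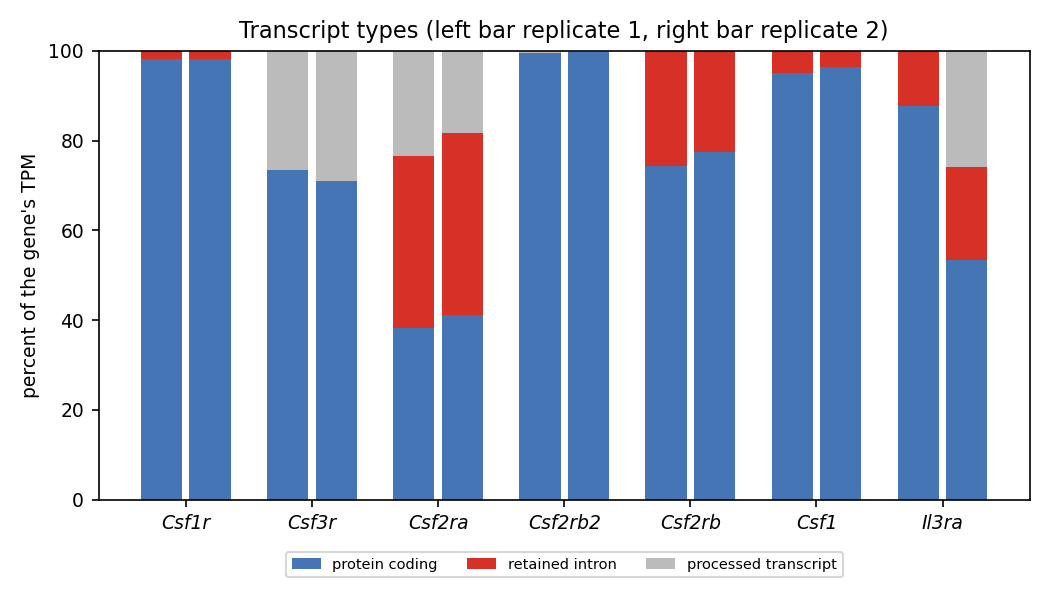
Percent of each detected gene's TPM on protein-coding (blue), retained-intron (red) and processed (grey) transcripts, with replicate 1 as the left bar and replicate 2 as the right. Retained-intron transcripts made up 38.4% and 40.7% of Csf2ra and 1.80% and 1.77% of Csf1r.

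In Csf2ra the coding transcript Csf2ra-201 held 38.17% and 41.03% of TPM. The retained-intron transcript Csf2ra-205 (632 bases) held 20.08% and 26.05% and spans 70 of the 102 bases of intron 9. Csf2ra-202 held 11.67% and 9.58% and keeps introns 6, 7 and 8, of 159, 106 and 139 bases, whole. Smaller shares fell to Csf2ra-208, with 4.65% and 2.12%, and Csf2ra-206, with 1.96% and 2.94%. The processed transcript Csf2ra-204 has 330 bases; it took 2.72% and 2.02% of counts and 23.47% and 18.28% of TPM, so the TPM of this gene too rested partly on a short transcript. The coding transcripts of Csf2ra had 23.27 and 23.89 TPM, which is close to the 26.58 and 27.32 TPM of the Csf2rb coding transcripts: on that measure the α subunit did not stand above the β subunit.

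In the first quantification Csf2rb-201 held 73.20% and 77.50% of the Csf2rb TPM, beside 34.8% and 37.5% in the second. Csf2rb-205, which covers 1911 of the 2330 bases of intron 3, held 18.91% and 21.56%. Csf2rb-207, with 90 of the 1053 bases of intron 2, held 6.78% and 0.94%, beside 23.0% and 26.4% in the second quantification. Csf2rb2 was nearly all Csf2rb2-201, with 98.92% and 99.65%. In Il3ra, the complete transcripts Il3ra-201 and Il3ra-203 held 37.49% and 37.81% of TPM in replicate 1 but 11.05% and 26.12% in replicate 2. Il3ra-205, a further coding transcript, held 10.49% and 16.30%, and the retained-intron transcript Il3ra-204 covers 414 of the 662 bases of intron 5. The processed transcript Il3ra-206 had a count of 0 in replicate 1 and 33.19 in replicate 2, and was 25.79% of TPM there. The second quantification did not show this contrast, with counts of 59.5 and 60.9 for Il3ra-206. In the first quantification the complete Il3ra transcripts had 10.65 and 6.05 TPM, lower in replicate 2, while the gene's TPM was higher in replicate 2. The second gave the complete transcripts 4.38 and 4.32 TPM, so a drop in their TPM was seen in the first alone. Their counts in the second, not scaled to library size, were 938 and 597.

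Between the replicates, each gene was compared by counts normalised with trimmed means of M-values (TMM), as the log2 ratio of replicate 2 over replicate 1. Csf1 had the largest ratio in size, 0.80 (95% counting interval 0.71 to 0.89); of the 15431 genes whose mean count reached 10, 5.26% had a higher one. Il3ra had −0.57 (−0.74 to −0.41), with 13.6% of genes lower. The other 5 receptor genes were between −0.32 for Csf2ra and −0.04 for Csf2rb2, with −0.24 for Csf1r, −0.22 for Csf3r and −0.19 for Csf2rb. The median of the 7 was −0.22, beside 0.00 over all genes, whose middle 50% ran from −0.31 to 0.27. In these bulk libraries fewer cells of a type and less RNA per cell cannot be told apart.

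None of the 7 genes passed 2-fold between the replicates on that scale, where 3.07% of genes passed 2-fold higher and 5.37% 2-fold lower in replicate 2. On the TPM scale the Csf1 ratio was 1.03, or 0.79 relative to the median protein-coding gene, which moved to 0.24 on that scale. Csf1 was higher in replicate 2 on every scale tried, with 0.73 in the second quantification and 1.06 on complete coding transcripts. The sign for the receptors was less steady: Csf1r was at −0.24 by counts and 0.44 by TPM, and Il3ra at −0.57 by counts, 0.20 by TPM and −0.82 on complete coding transcripts. That last value is of the first quantification only. The second gave those Il3ra transcripts 4.38 TPM in replicate 1 and 4.32 TPM in replicate 2, with unscaled counts of 938 and 597.

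**Figure D4:**
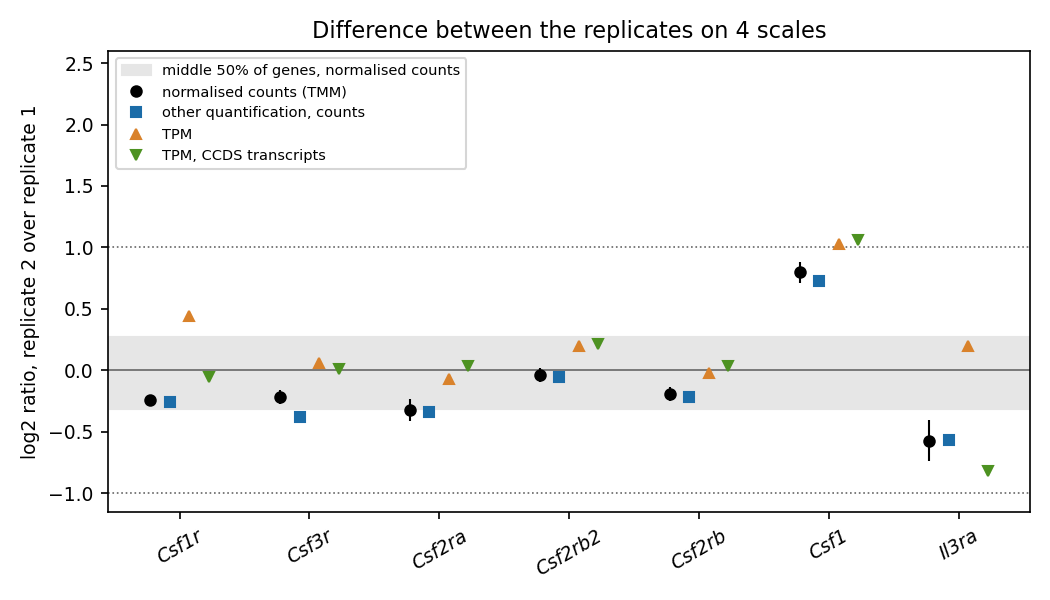
Log2 ratio of replicate 2 over replicate 1 for the 7 detected genes on 4 scales; black circles are TMM-normalised counts with 95% counting intervals, blue squares the counts of the second quantification, orange triangles TPM, green triangles TPM on transcripts with a consensus coding sequence, the grey band the middle 50% of genes by normalised counts and dotted lines 2-fold. Csf1 lies above the band on each scale, at 0.80 by normalised counts.

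The rest of the pathway was read from lists chosen by role. Of 8 other ligands and receptors of the family, 2 were detected: Flt3l, the FLT3 ligand, at 7.29 and 7.25 TPM, and Kitl, the KIT ligand, at 2.02 and 2.06 TPM. Il34, which encodes the other CSF1R ligand, and Il3 were listed at 0 counts in both libraries, so of the ligands for the 6 receptor genes only Csf1 was detected. The receptors Kit (0.25 and 0.70 TPM) and Flt3 (0.08 and 0.05 TPM) were below the limit.

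Of 20 genes of receptor-proximal signalling, 19 were detected, with medians of 20.3 TPM in replicate 1 and 19.1 TPM in replicate 2. The kinase Syk (110.97 and 107.2 TPM), its adaptor Tyrobp (109.2 and 81.54 TPM) and the Src-family kinase Lyn (87.74 and 68.62 TPM) were highest. Fgr, at 0.51 and 0.37 TPM, was the undetected one. Jak2, the kinase bound to the shared β subunit, had 31.22 and 25.19 TPM, and Stat5a and Stat5b, which it activates, had 5.28 and 5.17 TPM and 8.30 and 7.60 TPM; these 3 were named for their role, after their values were seen.

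Of 11 negative regulators, 10 were detected, led by the phosphatases Ptpn6 (66.31 and 44.04 TPM) and Inpp5d (57.64 and 62.47 TPM) and the ubiquitin ligase Cbl (33.55 and 42.40 TPM). The cytokine-signalling inhibitors Socs3 (10.53 and 3.74 TPM) and Socs1 (6.39 and 2.39 TPM) had ratios of −1.74 and −1.65, and Cish was undetected at 0.15 and 0.26 TPM. Both sheddases on the list were detected: Adam17, which cuts CSF1R off the cell surface, at 34.98 and 34.99 TPM and the related protease Adam10 at 14.44 and 16.68 TPM. Of the 6 growth-factor responsive genes 5 were detected, the highest being Mcl1 (185.9 and 181.16 TPM), Pim1 (56.25 and 46.0 TPM) and Bcl2l1 (31.24 and 29.67 TPM), and Myc was not (0.97 and 0.90 TPM).

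Of 8 transcription factors of myeloid receptor genes 6 were detected. Irf8 had 39.46 and 38.74 TPM, Spi1 (PU.1), a known activator of Csf1r, 43.18 and 28.10 TPM, and Cebpb 41.52 and 13.35 TPM with a ratio of −1.88; Myb and Cebpe were undetected. The median ratio was −0.25 for the transcription factors and for receptor-proximal signalling, −0.24 for negative regulators and −0.12 for the sheddases. It was −0.28 for the growth-factor responsive genes, beside −0.22 for the colony-stimulating factor genes and 0.00 over all genes. The 10 macrophage markers, Csf1r among them, had a median ratio of −0.58. Cebpb, Socs3 and Socs1, which were past 2-fold by normalised counts, were thus lower in replicate 2, where Csf1 was higher. Among the cell type markers, Fcgr1 (−1.14), C1qa (−1.27), Kdr (−1.52), Cdh5 (−1.24), Siglech (−1.31) and Xcr1 (−1.47) were also past 2-fold lower in replicate 2. Of these, Cdh5 (counts of 21 and 7), Siglech (16 and 5) and Xcr1 (28 and 8) were undetected, and their ratios rest on low counts. The part of such library differences in the Csf1 ratio was not tested.

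**Figure D5:**
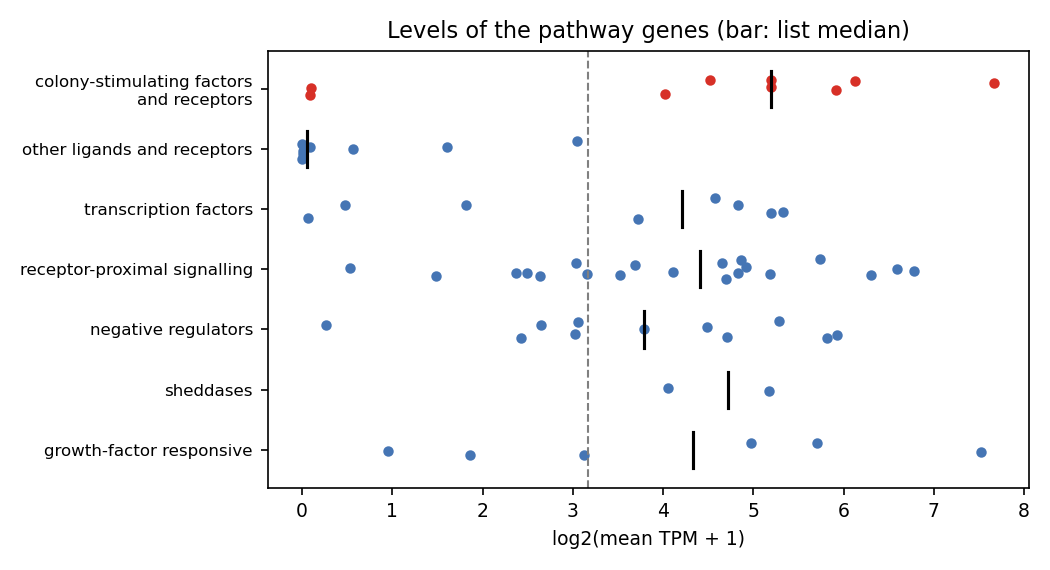
Mean level over both libraries, as log2(TPM + 1), of each colony-stimulating factor gene (red) and of each gene in the 6 pathway lists (blue), with a black bar at each group's median. Receptor-proximal signalling had 19 of 20 genes detected, and the other ligands and receptors of the family 2 of 8.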

How the data were processed

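Ribosomal RNA-depleted total RNA of the nuclear fraction (nucleoplasmic in the sample description) was measured in 2 libraries of 1 group. Per the file headers and the notes deposited with them, the authors aligned reads to the transcriptome of mm10 with GENCODE M21 annotation and deposited, per gene and per transcript, expected counts, TPM, posterior SDs, TPM intervals and the percent of a gene's TPM on each transcript. A second deposited transcript table gives estimated counts and TPM derived from reads and an index. No source used here names the aligner, the quantifiers, their versions or the strand setting.

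Genes were matched by symbol through GENCODE M21. Expected counts were rounded, and TMM factors (edgeR 4.0.16 in R 4.3.3) were computed over genes whose mean count reached 10; ratios had 0.5 added to each count, with intervals that cover counting error only. The ratio step was tested on simulated data. Tables were made with Python 3.11.15, pandas 2.3.3 and scipy 1.17.1, and DESeq2 1.42.0 gave alternative size factors. TPM can give a short transcript a large share from few reads, so levels were also summed over transcripts with a consensus coding sequence; these sums were chosen after seeing the data. Named genes were all 9 members; the 3 highest of each list, the undetected genes of mostly detected lists and the detected genes of the others, and genes past 2-fold; and transcripts with at least 10% of a gene's TPM or a retained intron. One gene that this rule names is not reported here. The members and lists were chosen with earlier results of these data known.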

Additional observations from a re-analysis of the deposited data

How the results depend on the processing

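The number of detected genes was 7 under every alternative tried. With limits of 0.5 TPM and 5 counts 1 neutrophil and 1 dendritic marker passed, and with the count limit of 10 alone 1 neutrophil, 2 dendritic and 1 progenitor marker did; at 5 TPM and 50 counts 1 endothelial marker passed. Ratios of replicate 2 over replicate 1 changed sign by TPM for Csf1r (0.44), Csf2rb2 (0.20), Csf3r (0.060) and Il3ra (0.20); on complete coding transcripts for Csf2ra (0.038), Csf2rb (0.040), Csf2rb2 (0.21) and Csf3r (0.013); and for Csf2rb2 scaled by total count (0.13). The median protein-coding gene moved to 0.24 by TPM and to 0.17 by total count. Relative to those medians, 5 of 7 and 6 of 7 members were below 0. The count past 2-fold was 1 by TPM (Csf1) and 2 with no count filter (Csf2 and Csf3, with counts too low for a ratio). Of the level differences (log2 TPM), Csf2rb against Csf2rb2 was 0.042 by posterior mean, 0.93 in the second quantification, −0.39 on complete coding transcripts, −0.32 on those in the second quantification, and −0.11 to 0.11 with either replicate left out. Csf2rb against Csf2ra was 0.052 in the second quantification, 0.19 on complete coding transcripts and 0.12 on those in the second quantification. On complete coding transcripts Csf1r against Csf1 was 2.85 and Il3ra against Csf2ra −1.55; in the second quantification these transcripts gave −1.32 for Il3ra against Csf2ra and −1.19 for Csf3r against Csf1r. The cause of these shifts was not tested. Depth limits Csf2 and Csf3, whose counts were at most 5 in the main table. No paired analysis was possible because the libraries form a single group.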
